A study of Mus musculus with 41 samples.

Results

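The genes described here encode the initiation and elongation factors of cytoplasmic translation. A gene was taken as a member when its symbol began with Eif1, Eif2b, Eif2s, Eif3, Eif4, Eif5, Eif6 or Eef1, or was Eef2, and at least 1 of its transcripts was annotated as protein coding. Eif2s3y and symbols beginning with Eif4a3 or Eif4ebp were left out. This gave 56 of the 22438 genes with footprint values, with 372 of the 142552 transcripts in the RNA values. A further 12 symbols matched but had no protein-coding transcript and were not used. By role, the members were 6 eEF1 genes, 5 methyltransferases that modify eEF1A, Eef2, 5 genes of the eIF1 and eIF1A family, 3 subunits of eIF2, 5 subunits of eIF2B, 14 eIF3 genes, 12 genes of the eIF4 family, 3 genes for eIF5, eIF5B and eIF6, and 2 eIF5A genes.

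The study asked how translation changes when cells lack a factor of translation-dependent quality control: HBS1L and PELO, which rescue stalled ribosomes, or UPF2, which acts in nonsense-mediated decay (NMD). Ribosome protected fragments (RPFs, the pieces of RNA that ribosomes shield from nuclease) were sequenced from Hbs1l-/- and wild-type embryos at E8.5 on C57BL/6NJ, each replicate a pool of embryos, and from single P14 cerebella of Tg(Atoh1-Cre) Hbs1l cKO mice and Hbs1l +/+ controls, both labelled Atoh-Cre. Both cerebellum groups were of the C57BL/6J strain, which carries the B6J allele of the tRNA gene n-Tr20. The Cre driver acts in the granule cell lineage, and the cKO mice carried 1 floxed and 1 deleted Hbs1l allele, the latter in all cells. RPFs and RNA were also sequenced from primary mouse embryonic fibroblasts (MEFs) of single embryos, C57BL/6 with n-Tr20 B6J/B6J. They carried CAG-Cre ER, a tamoxifen-activated recombinase, and all MEF groups, controls included, received tamoxifen. Each of the Hbs1l-/-, Pelo-/- and Upf2-/- groups had 3 RPF libraries sequenced in a pool with 3 control libraries. The RNA groups had 3 libraries each, except for 2 from Pelo-/- cells.

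In initiation, eIF2 brings the initiator tRNA to the small ribosomal subunit, eIF3 and eIF1A help to assemble the complex, the eIF4 factors bind the cap and unwind the leader, and eIF5 and eIF5B act as the start codon is found and the large subunit joins. eIF2B recharges eIF2 with GTP. In elongation, eEF1A delivers aminoacyl-tRNA to the ribosome, the eEF1B subunits (eEF1B2, eEF1D and eEF1G) recharge it, eEF2 moves the ribosome by 1 codon, and eIF5A helps peptide bonds form at difficult sequences. Several of these mRNAs, such as that of Eef1a1, are known as TOP mRNAs, whose leader begins with a run of pyrimidines and whose translation follows mTOR signalling.

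Because the pyrimidine run at the start site is the sequence feature for which TOP mRNAs are known, 30 bases around the RefSeq start of 9 members are shown, 15 on each side (GRCm38.p6, 5′ to 3′ on the strand of the gene, with the longest run of C and T in capitals). The first 5 have a run of at least 8 bases, and the other 4 are members whose values recur below and whose windows have none.

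Eef1a1, chr9:78481710-78481739, minus strand: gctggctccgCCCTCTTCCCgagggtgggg
Eif3f, chr7:108934400-108934429, plus strand: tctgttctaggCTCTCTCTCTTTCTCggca
Eif3l, chr15:79075208-79075237, plus strand: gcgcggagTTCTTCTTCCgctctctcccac
Eif2s3x, chrX:94212637-94212666, minus strand: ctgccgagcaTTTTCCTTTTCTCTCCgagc
Eif2b5, chr16:20498802-20498831, plus strand: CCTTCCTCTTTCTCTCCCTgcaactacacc
Eif4b, chr15:102073758-102073787, plus strand: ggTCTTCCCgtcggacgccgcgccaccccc
Eef2, chr10:81176616-81176645, plus strand: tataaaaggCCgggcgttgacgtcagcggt
Eif4a2, chr16:23107453-23107482, plus strand: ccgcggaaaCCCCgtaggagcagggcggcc
Eef1b2, chr1:63176816-63176845, plus strand: tggacctgcagTTCCgccggaagtagccga

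A run of at least 8 bases of C or T on the gene's own strand was found in 10 of the 42 members that have a RefSeq promoter entry (23.8%), beside 2371 of 16763 genes with footprint values (14.1%). The median longest run was 4.5 bases in the members and 5 in all genes. Eif4b, Eef2 and Eef1b2, all known TOP mRNAs, had no such run in this window. A RefSeq start need not be the start that is used in these cells, so the windows are a description of the annotation.

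The libraries held between 2634480 and 7298812 counted RPFs in embryos, between 10919139 and 22591768 in cerebella and between 5782990 and 25607974 in MEFs, and between 22713643 and 86425762 estimated RNA counts. RPF levels are given as CPM (counts scaled to library size), and levels of different genes are compared only per length of coding sequence (RPKM). Control libraries with the same number in the 3 MEF pools differed little: the chi-square per gene between them lay between 1.11 and 1.19 in 9 pairs, against 4.03 to 12.4 in the 27 other pairs. The 3 comparisons of MEFs therefore share 3 control cultures, and their results are given side by side and not as independent evidence. Hbs1l was lower than in controls in all Hbs1l-deficient libraries (13.2–15.8 CPM against 35.5–43.8 in cerebellum, 1.51–2.58 against 32.5–38.0 in MEF RPFs), and Pelo was lower in Pelo-/- MEFs (2.03–2.93 CPM against 31.7–37.1). Upf2 was higher, and not lower, in the libraries labelled Upf2-/- (114–118 CPM against 47.0–57.8 in RPFs, 29.5–64.8 against 14.7–21.7 in RNA). Gene counts do not resolve the deleted part of Upf2. Of 2945 transcripts annotated as NMD targets, 434 were called higher and 3 lower in the RNA labelled Upf2-/-. The paper reports a build-up of such transcripts in its Upf2-/- cells. All these libraries are called the libraries labelled Upf2-/- throughout.

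Of the cell type marker lists, the fibroblast list summed to 44245–46325 CPM in control MEFs of the Hbs1l pool and to 1816–5100 in control cerebella, and the granule neuron list to 3551–5778 CPM in control cerebella and 34.7–47.7 in those MEFs, where Gabra6 and Barhl1 were at 0. The granule progenitor list was not highest in cerebellum and summed to 183–193 CPM in control cerebella, 1551–1799 in control embryos and 1517–1668 in those MEFs. The visceral endoderm list summed to 19356–21756 CPM in control embryos, 4634–7712 in control cerebella and 94.7–121 in those MEFs.

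For some members the counts are uncertain, since pseudogenes or paralogs can share their reads. In control MEFs the ratio of RPF RPKM to RNA TPM had a median of 0.950 over 53 members. It was 0.0160 for Eif1, 0.0229 for Eef1g, 0.0293 for Eif4a1, 0.0985 for Eif3j1 and 0.101 for Eif2s3x. Eef1d (0.129), Eif4e (0.142) and Eef1a1 (0.166) followed with no clear gap, so RPF values of these 8 genes should be read with that in mind. Eif4e1b, an oocyte form of the cap-binding protein, had no RPF in the control libraries and was tested nowhere. Eef1a2 and Eef1akmt3 were too low to be tested in embryos, Eef1akmt3 in cerebella, and Eif3j1 in the RPFs of Hbs1l-/- MEFs and of the libraries labelled Upf2-/-. Tests were made with edgeR's quasi-likelihood test, and each adjusted p is a Benjamini-Hochberg value over all genes tested in that comparison, with 0.05 as the threshold. A fall in a tissue can come from fewer cells of a type or from less RNA per cell, which cannot be told apart in such samples.

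The control libraries show how strongly these genes are translated in each source. In control embryos the highest member was Eif5a at 2551, 2322 and 2569 RPKM (2481 ± 138, SD, n = 3), followed by Eef1b2 (1548 ± 145), Eef1a1 (1334 ± 48.7) and Eef2 (1332 ± 82.5). The median member stood at 130 RPKM. Eef1b2, Eef1a1 and Eef2 overlapped from library to library, so their order is not fixed by these data.

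In control cerebellum, Eef1a2, the eEF1A form of neurons and muscle, was first at 1149, 1212 and 920 RPKM (1094 ± 154). Eif5a followed at 565 ± 81.0 RPKM, then Eif4h, a helper of the eIF4A helicase (406 ± 14.8), Eif4a2 (404 ± 25.7) and Eef2 (367 ± 69.7). Every Eef1a2 value lay above every Eif5a value, while Eif4h and Eif4a2 did not differ beyond their spread.

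In control MEFs the order was Eif5a (1400 ± 93.2 RPKM), Eef1a1 (1087 ± 19.97), Eef2 (1025 ± 38.8) and Eef1b2 (714 ± 41.9), and Eef1a2 stood at 0.491. In RNA the first 5 were Eef1a1 at 6549 ± 979 TPM, Eef1b2 at 2133 ± 304, Eef2 at 1822 ± 291, Eef1g at 1539 ± 180 and Eif5a at 1474 ± 147. Of the 55 pairs of neighbours in each order, 13 in embryos, 11 in cerebella, 26 in MEF RPFs and 15 in MEF RNA had libraries that did not overlap. The order among close neighbours is therefore mostly within the spread between libraries.

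**Figure D1:**
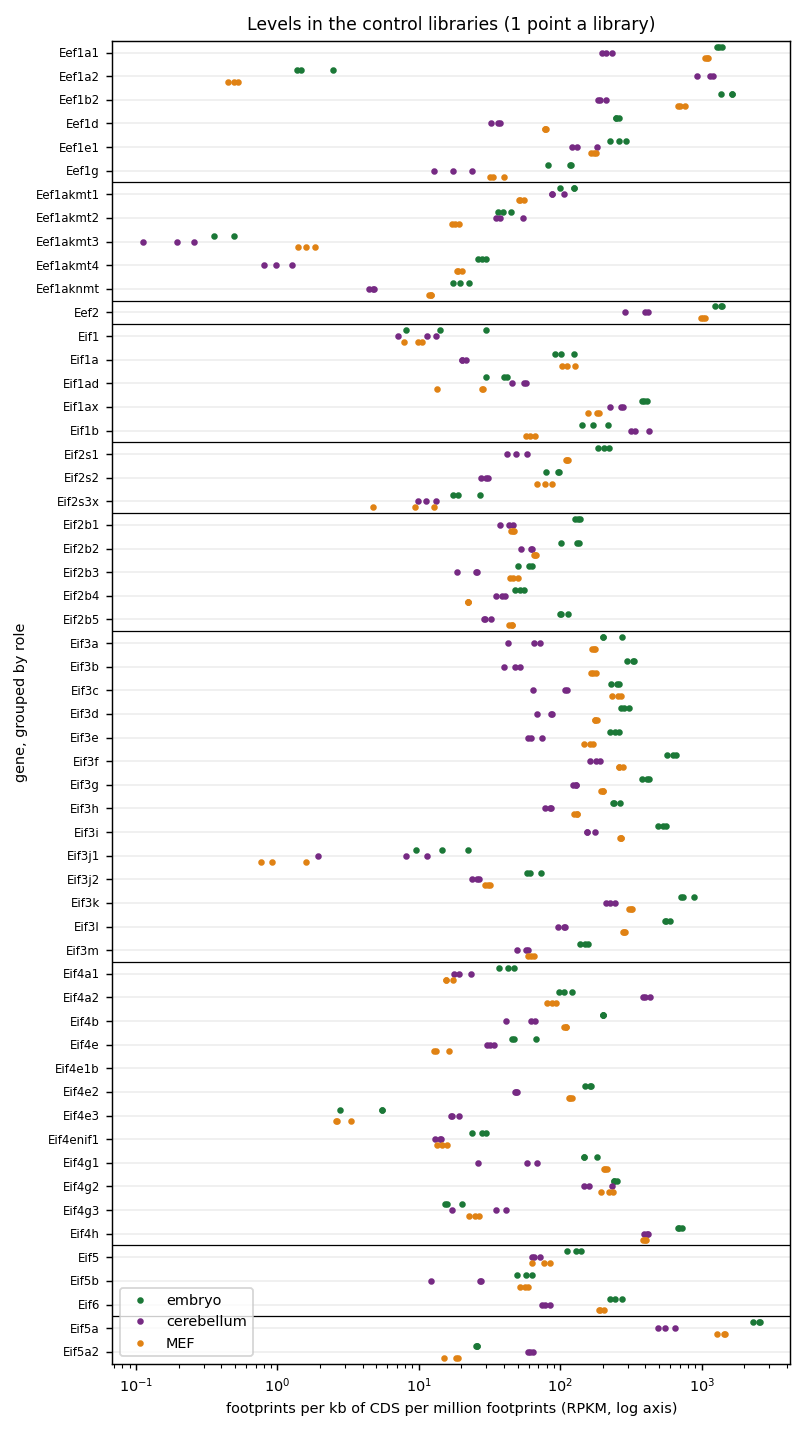
RPF level of the members in control libraries, in RPKM on a log axis, with 1 point per library for embryos, cerebella and MEFs. Eif5a is the highest member in embryos and MEFs and Eef1a2 in cerebella, where it stands at 1094 RPKM against 0.491 in MEFs.

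As a share of all counted RPFs, the members took 2.02 ± 0.0485% in control embryos, 1.35 ± 0.0175% in control MEFs of the Hbs1l pool and 0.817 ± 0.0562% in control cerebella. Of 54 members tested between control cerebellum and control embryos, 7 were higher and 42 lower in cerebellum, where 44% of all genes tested were higher and 36.1% lower. The median log2 difference was -1.40 over the members and 0.21 over all genes. Between cerebellum and MEFs, 11 of 55 were higher and 39 lower (44.2% and 37.9% of all genes), with medians of -1.002 and 0.15. Between MEFs and embryos, 8 of 54 were higher and 32 lower (38.6% and 39% of all genes), with medians of -0.39 and -0.01. Tissue, age, strain, Cre transgene and sequencing batch cannot be told apart in these 3 comparisons, nor can the narrower size selection of cerebellum in the 2 that hold it. The same holds for culture and tamoxifen in the comparisons with MEFs. With DESeq2 the median of all genes between MEFs and embryos was -0.15, and the differences printed here are edgeR's.

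Eef1a2 was counted at 1731, 1793 and 1329 CPM in cerebellum and at 1.87, 3.46 and 2.02 CPM in embryos, a log2 difference of 9.30 (SE 0.27, edgeR adjusted p = 1.87e-09). Eif4a2, a copy of the helicase eIF4A, had 528, 568 and 491 CPM against 119, 132 and 147 (2.00, SE 0.14). Eif4e3, a member of the cap-binding family, had 11.5, 11.2 and 12.4 CPM against 3.36, 1.73 and 3.36 (2.099, SE 0.30). No cerebellum library overlapped an embryo library for any of the 3. Eif5a2, the second eIF5A gene, had 30.2, 28.8 and 30.5 CPM against 11.6, 11.9 and 11.4, and Eif1b, a copy of the start codon factor eIF1, 117, 124 and 151 against 48.1, 59.1 and 73.6 (1.36 and 1.12). Against MEFs these 5 genes were also higher, at 10.69 for Eef1a2, 2.21 for Eif4e3, 2.14 for Eif1b, 1.80 for Eif4a2 and 1.40 for Eif5a2. Eif3j1, whose counts are uncertain, had 4.93 ± 3.35 CPM in cerebellum and 1.000 ± 0.437 in MEFs (2.27, edgeR adjusted p = 0.0103), with overlap.

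The members that were lower in cerebellum were led by the methyltransferase gene Eef1akmt4, with 0.764, 0.915 and 1.16 CPM against 24.3, 26.2 and 22.5 in embryos (-4.64). The eEF1B subunit Eef1b2 had 159, 162 and 175 CPM against 1275, 1102 and 1276 (-2.88), and Eef1d 80.6, 81.8 and 68.7 against 524, 507 and 499 (-2.73). The eIF3 scaffold subunit Eif3b had 124, 134 and 99.8 CPM against 791, 791 and 704 (-2.68), and Eef1a1 298, 311 and 337 against 1887, 1854 and 1758 (-2.54). In each case the libraries of both groups were far apart. Of the eIF3 genes, 13 of 14 were lower in cerebellum than in embryos and 13 of 14 lower than in MEFs, and all 5 eIF2B subunits were lower than in embryos, where 36.1% (embryos) and 37.9% (MEFs) of all genes were lower. Against MEFs the largest decreases were those of Eef1akmt4 (-4.62), the eIF1A gene Eif1a (-2.88), Eef1a1 (-2.76), Eif4g1 (-2.44), the scaffold of the cap-binding complex, and Eif3b (-2.30).

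MEFs stood nearer to embryos. Eif4g3, a copy of the eIF4G scaffold, had 166, 182 and 149 CPM in control MEFs and 76.5, 96.7 and 73.2 in embryos (1.00), and Eif4g1 (0.88), Eif1a (0.59), Eif3c (0.51) and Eif5b (0.46) were also higher in MEFs. Lower in MEFs were Eif3j1 (-3.32), the cap-binding protein gene Eif4e (-1.42), Eef1d (-1.20), Eef1g (-1.11) and Eif1b (-1.04). The eIF3 genes counted 11 of 14 lower and 1 higher, where 39% of all genes were lower and 38.6% higher.

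Shares within paralog pairs, here and below, are shares of the summed RPKM of both genes. Length enters as the union of the coding exons of all annotated transcripts of a gene. Eef1a2 made up 83.4 ± 3.18% of the RPKM of both eEF1A genes in control cerebellum, 0.133 ± 0.0465% in control embryos and 0.0452% in control MEFs of the Hbs1l pool. Counts of Eef1a1 are among the uncertain ones. Eif4a2 made up 95.3 ± 0.430% of the Eif4a1 and Eif4a2 RPKM in cerebellum, 72.0 ± 2.43% in embryos and 84.3 ± 0.526% in MEFs, where counts of Eif4a1 are among the uncertain ones. In control MEF RNA the order was the reverse, at 551 ± 48.2 TPM for Eif4a1 and 81.6 ± 1.83 for Eif4a2. The RPF share therefore does not show which of the 2 genes is more translated. The share of Eif5a2 was 9.86% in cerebellum, 1.02% in embryos and 1.23% in MEFs, and that of Eif4g3 beside Eif4g1 was 38.4%, 9.72% and 10.5%.

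In Hbs1l-/- embryos Eif3j1 and Eif2s3x passed the test. Of 53 members tested, 0 were higher and 2 lower in Hbs1l-/- embryos, where 1.87% of all genes tested were called, and 7 members had an unadjusted p below 0.05, as did 18.6% of all genes. The median log2 fold change was -0.04 over the members and 0.01 over all genes. The 2 genes that passed were Eif3j1, a loosely bound eIF3 subunit, and Eif2s3x, the X-linked gene for the gamma subunit of eIF2.

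Eif3j1 was counted at 3.54, 0.755 and 2.54 CPM in Hbs1l-/- embryos and at 11.9, 18 and 7.79 CPM in wild type (-2.39, SE 0.49, edgeR adjusted p = 0.028). Eif2s3x had 16.7, 6.8 and 10.5 CPM against 40.3, 27.9 and 25.9 (-1.42, SE 0.31, edgeR adjusted p = 0.0383). The groups did not overlap for either gene, but both genes are among those with uncertain counts. With 5 libraries the calls were often lost: 0 members were called without Hbs1l-/- replicate 2 or without control replicate 1, 2 or 3, 1 without Hbs1l-/- replicate 3 and 9 without Hbs1l-/- replicate 1. Eef2 had 3791, 3412 and 2651 CPM in Hbs1l-/- embryos and 3729, 3626 and 3310 in wild type (-0.11), Eef1a1 differed by 0.06, Eif5a by -0.13 and Eif4a2 by 0.27 (edgeR adjusted p = 0.366), with no call. The share of all RPFs on the members was 2.00 ± 0.0693% and 2.02 ± 0.0485%.

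The embryo pools also differed in genes of sex and cell type. The Y-linked homologue Eif2s3y had 46.9–61.9 CPM in Hbs1l-/- pools and 5.69–36.8 in wild type, and Ddx3y 52.0–69.1 against 4.93–31.7, beside the fall of Eif2s3x. Of the cardiac marker list 11 of 12 genes were lower, of the erythroid list 4 of 10 were lower (summed level 3139–8019 CPM against 12722–16613), and of the trophoblast list 6 of 7 were higher (167–1488 against 37.4–56.6). The fibroblast list had 2 of 9 genes lower (2011.5–2455 CPM against 2550–3334) and the endothelial list 1 of 7 higher (494–684 against 450–477). The interferon list summed to 84.1–105 CPM against 52.5–63.8, with 0 of 2 tested genes called. The part of all these genes in the values of Eif2s3x and Eif3j1 was not tested.

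In cerebellum no member passed the test for loss of HBS1L. edgeR called 0 of 54 members, where 0.0624% of all genes were called, and 6 members had an unadjusted p below 0.05, as did 13.4% of all genes. DESeq2 called 2, both lower. The median log2 fold change was 0.03 over the members and 0.00 over all genes.

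The lowest p values belonged to 3 genes, among them the paralogs that were high in control cerebellum. Eif4a2 had 333, 345 and 327 CPM in mutant and 518, 556 and 483 CPM in control cerebella (-0.63, SE 0.12, edgeR adjusted p = 0.105), and Eef1a2 1061, 1151 and 1078 against 1697, 1757 and 1306 (-0.53, SE 0.15, edgeR adjusted p = 0.199). Eef1a1 had 452, 364 and 434 CPM against 292, 305 and 331 (0.43, SE 0.13, edgeR adjusted p = 0.229). None of these 3 genes was called by edgeR. They were picked for the lowest p values, so that their lack of overlap between the groups is no further support. DESeq2 called Eif4a2 and Eef1a2, and 4 members were called without control replicate 3, with no share of all genes for those fits. As a share of the RPKM of both eEF1A genes, Eef1a2 was 72.4 ± 3.08% in mutants and 83.4 ± 3.18% in controls, and the share of Eif4a2 beside Eif4a1 was 90.8 ± 0.955% and 95.3 ± 0.430%. Counts of Eef1a1 and Eif4a1 are among the uncertain ones. Markers of granule cell progenitors summed to 390–625 CPM in mutants and 183–193 in controls, with 2 of 8 genes called higher, and Purkinje cell markers to 5190–6866 against 6842–12632, with 0 of 7 called. Without overlap between the groups, the visceral endoderm list summed to 8524–9979 CPM against 4634–7712 and the early embryo list to 78.4–102.2 against 59.4–67.9, with 0 of 7 and 0 of 3 tested genes called. The part of cell makeup in the levels of Eif4a2 and Eef1a2 was not tested.

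RPFs of MEFs gave calls in all 3 genotypes. In Hbs1l-/- MEFs, 12 of 54 members were higher and 2 lower, where 17.4% of all genes tested were higher and 16.7% lower. In Pelo-/- MEFs, 17 of 55 were higher and 4 lower (22.9% and 21.2% of all genes). Of 54 tested in the libraries labelled Upf2-/-, 16 were higher and 4 lower (22.3% and 21.1% of all genes). Median log2 fold changes were 0.13, 0.11 and 0.03 over the members, beside -0.01, 0.00 and 0.00 over all genes. The shares of higher members lay somewhat above the background, and those of lower members below it.

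In step with these counts, the members took a larger part of all RPFs. The share was 1.60 ± 0.0121% in Hbs1l-/-, 1.55 ± 0.00145% in Pelo-/- and 1.48 ± 0.0214% in the libraries labelled Upf2-/-, against 1.35% in the controls of each pool (SD 0.0175, 0.0218 and 0.0191). The libraries of each genotype did not overlap those of their controls. This share is weighted by the few members with the highest counts, above all Eef2 and Eef1a1. In the libraries labelled Upf2-/- Eef2 took 0.330 ± 0.0108% against 0.265 ± 0.0111%. The eEF1 genes took less there, at 0.213 ± 0.0190% against 0.239 ± 0.00615%, with overlap.

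**Figure D2:**
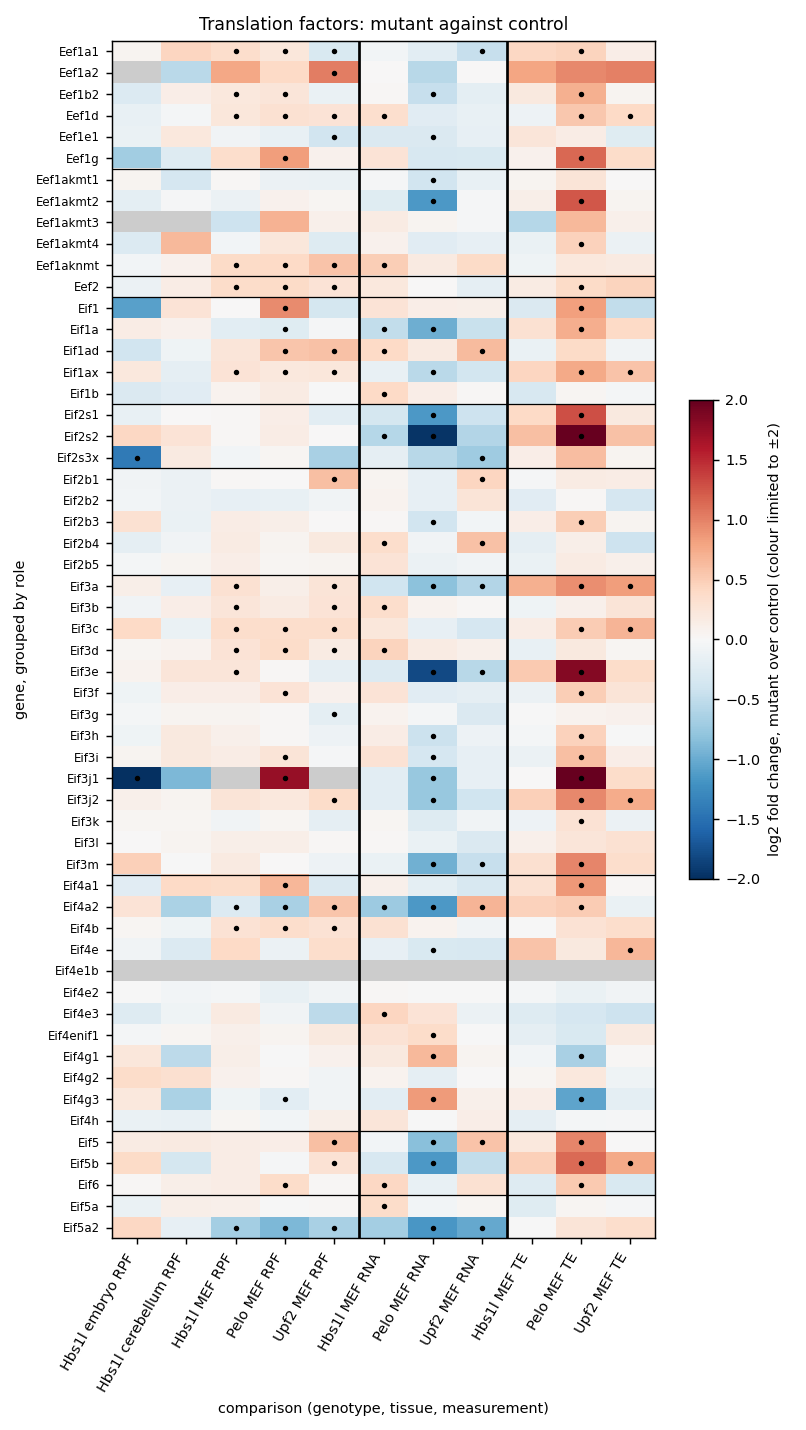
Log2 fold change of each member (rows) in the 11 comparisons of a genotype and its controls (columns). The colour is limited at 2 in either direction, dots are calls of edgeR (adjusted p below 0.05) and grey marks genes not tested. The 3 RPF columns of MEFs hold more dots on red than on blue cells, while the RNA column of Pelo-/- MEFs holds 21 lower and 3 higher members.

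Eef2 rose in RPFs of all 3 genotypes. Eef2 (chr10:81176631-81182498, plus strand), the translocase, had 3490, 3478 and 3398 CPM in Hbs1l-/- MEFs and 2675, 2836 and 2543 CPM in their controls (0.36, SE 0.06, edgeR adjusted p = 0.000393). It had 3420, 3677 and 3383 CPM in Pelo-/- MEFs against 2687, 2838 and 2517 (0.38, edgeR adjusted p = 0.00202), and 3163, 3218 and 3440 in the libraries labelled Upf2-/- against 2693, 2884 and 2557 (0.27, edgeR adjusted p = 0.00624). Each library of these genotypes lay above each control library in all 3 comparisons. Eef1a1 (chr9:78478449-78489151, minus strand), which delivers aminoacyl-tRNA, did not follow the same course, at counts that are uncertain as given above. It had 1934, 2128 and 1804 CPM in Hbs1l-/- MEFs against 1541, 1531 and 1523 (0.35, SE 0.07, edgeR adjusted p = 0.00106), and 1849, 1689 and 1838 in Pelo-/- MEFs against 1545, 1524 and 1543 (0.22, edgeR adjusted p = 0.0194). In the libraries labelled Upf2-/- it had 1142, 1158 and 1470 CPM against 1592, 1542 and 1535 (-0.31, SE 0.09, edgeR adjusted p = 0.0154). Eef1a1 was thus high in both rescue-factor mutants and low in the libraries labelled Upf2-/-, with no overlap in any of the 3. The calls of Eef1a1 were lost without Pelo-/- replicate 1 or control replicate 1 of its pool, and without replicate 1 or 2 labelled Upf2-/- or control replicate 1 of that pool.

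The eEF1B subunits that recharge eEF1A also differed by genotype. Eef1d rose by 0.22 in Hbs1l-/-, 0.30 in Pelo-/- and 0.27 in the libraries labelled Upf2-/- (edgeR adjusted p = 0.0159, 0.00257 and 0.00514). Eef1b2 rose by 0.21 and 0.25 in the first 2 and stood at -0.13 in the third, with no call. Eef1g had 79.9, 85.5 and 81.9 CPM in Pelo-/- MEFs against 45.2, 55.6 and 37.5 (0.84, edgeR adjusted p = 0.000356), and its counts are among the uncertain ones. Eef1e1, a multisynthetase complex component named with this family, had 68.7, 71.7 and 69.2 CPM in the libraries labelled Upf2-/- against 92.2, 89 and 93 (-0.39, edgeR adjusted p = 0.000668). Eef1a2 had 1.86, 2.06 and 2.62 CPM there against 0.779, 1.61 and 0.778 (1.03, edgeR adjusted p = 0.0348), a call at very low counts that was lost with DESeq2 and without any of 5 libraries (replicates 1, 2 and 3 labelled Upf2-/-, control replicates 1 and 3). Of the 5 methyltransferases that modify eEF1A, Eef1aknmt was the 1 called in each genotype. It had 31.9, 34.5 and 34.3 CPM in Hbs1l-/- against 24.9, 26.3 and 25.6 (0.39, edgeR adjusted p = 0.00531), rose by 0.40 in Pelo-/-, and had 37.6, 36.9 and 41.4 CPM in the libraries labelled Upf2-/- against 26.1, 26.6 and 24.9 (0.57, edgeR adjusted p = 0.000284).

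Eif5a and Eif5a2 parted. Eif5a, with by far more RPFs, differed by 0.10, -0.01 and 0.03 in the 3 genotypes, with no call. Eif5a2 (chr3:28781276-28798846, plus strand) had 5.24, 4.52 and 5.16 CPM in Hbs1l-/- MEFs against 8.42, 7.17 and 8.75 (-0.68, SE 0.18, edgeR adjusted p = 0.00856). It had 4.9, 4.74 and 4.53 CPM in Pelo-/- MEFs against 8.36, 7.4 and 10.8 (-0.90, edgeR adjusted p = 0.00202), and 4.23, 6 and 5.1 in the libraries labelled Upf2-/- against 8.42, 7.25 and 9.05 (-0.66, edgeR adjusted p = 0.0122). It was the 1 member that fell in all 3, and no library of these genotypes reached a control library. As a share of the RPKM of both eIF5A genes, Eif5a2 was 0.705% in Hbs1l-/-, 0.726% in Pelo-/- and 0.772% in the libraries labelled Upf2-/-. Their controls had 1.23%, 1.34% and 1.26%.

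Among the eIF4 factors Eif4a2 was called in all 3 genotypes. The gene (chr16:23107444-23114136, plus strand) had 90.9, 84.6 and 94.5 CPM in Hbs1l-/- MEFs against 100, 119 and 107 (-0.27, SE 0.08, edgeR adjusted p = 0.0178). It had 73.7, 70.2 and 61.1 CPM in Pelo-/- MEFs against 105, 114 and 103 (-0.65, edgeR adjusted p = 0.000175). In the libraries labelled Upf2-/- it had 147, 171 and 171 CPM against 105, 119 and 109 (0.56, edgeR adjusted p = 0.000196). Eif4a2 was therefore low in both rescue-factor mutants and high in the libraries labelled Upf2-/-, with no overlap in any of the 3, and the call in Hbs1l-/- was lost without Hbs1l-/- replicate 1 or 2 or control replicate 2. Eif4a1 had 43.6, 29.9 and 39.9 CPM in Pelo-/- MEFs against 21.6, 28.1 and 22 (0.66, edgeR adjusted p = 0.00532), at uncertain counts. The share of Eif4a2 in the RPKM of both genes was 65.6 ± 4.95% in Pelo-/- against 82.6 ± 1.42% in its controls, and 91.0 ± 1.67% in the libraries labelled Upf2-/- against 84.6 ± 0.0746%.

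Of the other eIF4 genes, Eif4b, which stimulates the helicase, rose by 0.28, 0.36 and 0.28 (edgeR adjusted p = 0.0049, 0.000721 and 0.00559). Eif4e, the cap-binding protein, differed by 0.40, -0.11 and 0.36 with no call, the first at an edgeR adjusted p of 0.0563. Eif4g3 had 118, 126 and 115 CPM in Pelo-/- MEFs against 135, 146 and 134 (-0.21, edgeR adjusted p = 0.0264), a call that was lost without Pelo-/- replicate 1 or 3 or control replicate 1 or 2. In number, the eIF4 genes counted 1 higher and 1 lower, 2 and 2, and 2 and 0 of 11 tested in the 3 genotypes, below the shares of all genes (17.4%, 22.9% and 22.3% higher, 16.7%, 21.2% and 21.1% lower).

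The eIF3 subunits, which hold the initiation complex together, rose in part. In Hbs1l-/-, 5 of 13 were higher and 0 lower, in Pelo-/- 5 of 14 and 0, and in the libraries labelled Upf2-/- 5 of 13 and 1, where 17.4%, 22.9% and 22.3% of all genes were higher and 16.7%, 21.2% and 21.1% lower. Eif3c had 883, 903 and 883 CPM in Hbs1l-/- MEFs against 703, 654 and 733 (0.35, edgeR adjusted p = 0.00063) and rose by 0.35 and 0.36 in the other genotypes (edgeR adjusted p = 0.00482 and 0.000692). Eif3d, a subunit that can bind the cap, rose by 0.28, 0.37 and 0.16 (edgeR adjusted p = 0.00304, 0.00117 and 0.0451). These 2 were the eIF3 genes called in all 3 genotypes. Eif3a rose by 0.30 in Hbs1l-/- and by 0.26 in the libraries labelled Upf2-/-, and Eif3b by 0.24 and 0.28, while in Pelo-/- they stood at 0.11 and 0.17 with no call. Eif3f (0.27) and Eif3i (0.26) rose in Pelo-/-, Eif3e (0.24) in Hbs1l-/- and Eif3j2 (0.36) in the libraries labelled Upf2-/-. Eif3j1, at about 3.14 CPM against 0.939, rose by 1.74 in Pelo-/-, at uncertain counts. Eif3g had 167, 168 and 175 CPM in the libraries labelled Upf2-/- against 194, 194 and 195 (-0.19, edgeR adjusted p = 0.018), and this call was lost without replicate 1 or 2 labelled Upf2-/- or control replicate 1.

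None of the 3 eIF2 subunits was called in any genotype. Eif2s1, whose phosphorylation slows initiation, differed by 0.03, 0.13 and -0.20. Of the 5 subunits of eIF2B, 1 was called in 1 genotype: Eif2b1 (chr5:124570213-124579131, minus strand), the alpha subunit, had 76.9, 80.1 and 81.7 CPM in the libraries labelled Upf2-/- against 51.3, 53.1 and 53.4 (0.60, edgeR adjusted p = 4.53e-05). It stood at 0.02 in Hbs1l-/- (54.0 ± 1.91 CPM) and at 0.01 in Pelo-/- (53.1 ± 4.03 CPM), with no call. No library labelled Upf2-/- overlapped its controls for Eif2b1.

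Among the remaining initiation factors, Eif5 (chr12:111538016-111546752, plus strand), which makes eIF2 split its GTP, had 146, 160 and 148 CPM in the libraries labelled Upf2-/- against 102, 88.8 and 110 (0.60, edgeR adjusted p = 0.00019). Eif5b, which joins the large subunit, rose there by 0.28 (edgeR adjusted p = 0.00254), and Eif6, which keeps the large subunit apart, rose by 0.36 in Pelo-/- (edgeR adjusted p = 0.00155). Eif1ad, an eIF1A-domain gene, had 17, 17.6 and 17.3 CPM in Pelo-/- MEFs against 12.6, 9.44 and 13.2 (0.56, edgeR adjusted p = 0.00633). These genes stood clear of their controls in each library. In the libraries labelled Upf2-/- Eif1ad had 17.6, 18.6 and 14.1 CPM against 10.5, 10.1 and 12.9 (0.59, edgeR adjusted p = 0.00762, lost without replicate 2 labelled Upf2-/-). Eif1ax, the X-linked eIF1A, rose by 0.27, 0.21 and 0.22 (edgeR adjusted p = 0.0317, 0.0348 and 0.0476), whereas Eif1a had 106, 88.5 and 94.2 CPM in Pelo-/- MEFs against 109, 108 and 125 (-0.25, edgeR adjusted p = 0.0396, lost without Pelo-/- replicate 2 or 3 or control replicate 1 or 3). The lengths used for RPKM, each the union of the coding exons of all annotated transcripts, were 432 bases for Eif1ax and 968 for Eif1a. Such a union can be longer than the coding sequence of any 1 transcript, and the level of the shares depends on it. As a share of the RPKM of both genes, Eif1ax was 68.0% in Hbs1l-/-, 67.2% in Pelo-/- and 65.0% in the libraries labelled Upf2-/-. Their controls had 60.5%, 59.8% and 61.0%. Eif1, which guards the choice of start codon, had 10.1, 7.6 and 11.9 CPM in Pelo-/- MEFs against 5.46, 5.21 and 4.81 (0.94, edgeR adjusted p = 0.00236), at uncertain counts.

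Chosen after their values were seen, 7 members were higher in all 3 genotypes: Eef1aknmt, Eef1d, Eef2, Eif1ax, Eif3c, Eif3d and Eif4b. Eif5a2 was lower in all 3, Eef1a1 and Eif4a2 were called in opposite directions, and 24 of 55 members were called in none. Of 11890 genes tested in all 3 comparisons, 9.63% were higher in all 3 and 9.65% lower in all 3, beside 7 and 1 of the 54 members tested in all 3, and 36.5% of 12573 genes were called in none. Since the controls are shared, these counts do not stand for 3 independent observations. Interferon-stimulated genes moved beside them: of the tested genes of that list, 9 of 9 were higher in Hbs1l-/- (summed 329–605 CPM), 12 of 12 in Pelo-/- (1536–2413) and 12 of 12 in the libraries labelled Upf2-/- (320–1007), where controls of the Pelo pool had 59.3–94.5. Markers of cell types moved as well. Of 9 fibroblast markers 7, 6 and 6 were higher and 1, 1 and 2 lower in the 3 genotypes. Of the tested endothelial markers 3 of 4, 3 of 5 and 2 of 4 were lower and 0, 1 and 1 higher, with sums of 40.9–48.8 CPM against 79.0–96.9 in Hbs1l-/-, 27.0–33.9 against 83.8–102.6 in Pelo-/- and 56.4–63.8 against 78.4–99.2 in the libraries labelled Upf2-/-. Cardiac markers were lower in 4 of 7, 5 of 8 and 2 of 8 and higher in 0, 0 and 1, and glial markers higher in 1 of 5, 4 of 7 and 2 of 5 and lower in 0, 0 and 1. The visceral endoderm list, with 4 genes tested, had 0, 2 and 1 higher and 0, 1 and 2 lower, at sums of 83.4–147 CPM against 94.7–121 in Hbs1l-/-, 253–369 against 90.6–115 in Pelo-/- and 192–207 against 94.7–121 in the libraries labelled Upf2-/-. The Y-linked Ddx3y was at 0.0888–0.675 CPM in Hbs1l-/- RPFs, at 101, 95.8 and 0.859 in Pelo-/- and at 113–123 in the libraries labelled Upf2-/-. Controls of the Hbs1l pool had 0.172, 0.881 and 113 CPM, so sex was not balanced. Eif1ax and Eif2s3x are X-linked. The part of all these genes, and of sex, in the levels of the translation factors was not tested.

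**Figure D3:**
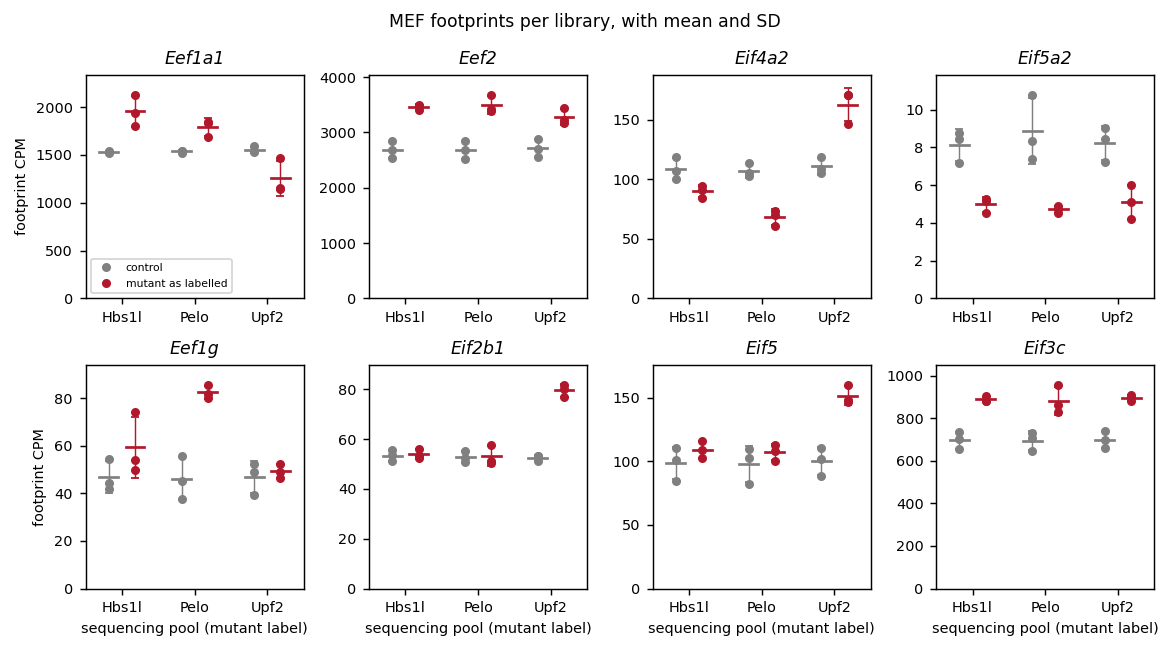
RPF level in CPM for 8 members in the 3 MEF pools, with 1 point per library. The mean and SD of 3 libraries are given for each genotype and its controls. Eef2 is high and Eif5a2 low in each genotype, while Eef1a1 and Eif4a2 move in opposite directions between the libraries labelled Upf2-/- and the others.

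Whether the genotypes differed was tested directly as the difference between their fold changes. Between Pelo-/- and Hbs1l-/- edgeR called 0 of 55 members, where 5.55% of all genes were called, with 8 at an unadjusted p below 0.05 (19.3% of all genes) and 0 by DESeq2. Between the libraries labelled Upf2-/- and Hbs1l-/- it called 5 of 55 (4.93% of all genes), and between the libraries labelled Upf2-/- and Pelo-/- 11 of 55 (13% of all genes). These tests count the 2 sets of control libraries as separate, although they come from the same cultures. With the counts of both pools summed for each control culture, an alternative chosen after seeing the data, 5, 11 and 21 members were called, where 17.8%, 16.8% and 28.5% of all genes were called.

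Eif4a2, Eef1a1, Eif2b1 and Eef1b2 were called in both comparisons with the libraries labelled Upf2-/-. Relative to Hbs1l-/-, the libraries labelled Upf2-/- were higher for Eif4a2 (0.83, edgeR adjusted p = 0.000547) and Eif2b1 (0.58, edgeR adjusted p = 0.00157), and lower for Eef1a1 (-0.66, edgeR adjusted p = 0.00414), Eif3e (-0.43, edgeR adjusted p = 0.0199) and Eef1b2 (-0.34, edgeR adjusted p = 0.034). Relative to Pelo-/- they were higher for Eif4a2 (1.204, edgeR adjusted p = 2.88e-05), Eif2b1 (0.59), Eif5 (0.46) and Eif5b (0.31). They were lower for Eif1 (-1.30), Eif4a1 (-0.94), Eef1g (-0.76), Eef1a1 (-0.53), Eef1b2 (-0.38), Eif6 (-0.34) and Eif3i (-0.28). The count of 5 fell to 3 without Hbs1l-/- replicate 3 or control replicate 1 of the pool labelled Upf2-/-, and the count of 11 to 6 without Pelo-/- replicate 1. Eif4a2, Eef1a1 and Eif2b1 passed with every library left out in turn.

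Between sources, the Hbs1l effect differed for 1 of 54 members between embryos and MEFs (7.46% of all genes) and for 1 of 54 between embryos and cerebella (0.732%). Eef1g, at -0.69 in embryos and 0.35 in MEFs, differed by -1.03 (edgeR adjusted p = 0.0149), and 0 members were called without Hbs1l-/- MEF replicate 1, 13 without Hbs1l-/- embryo replicate 1 and 2 without embryo control replicate 2. Eif4a2, at 0.27 in embryos and -0.63 in cerebella, differed by 0.90 (edgeR adjusted p = 0.0472). The call of Eif4a2 was lost without any of 10 libraries, all but Hbs1l-/- embryo replicate 1 and cerebellum control replicate 3, without which 3 and 2 members were called.

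RNA was measured in MEFs alone, as estimated counts per transcript summed per gene. In Hbs1l-/- MEFs, 10 of 55 members were higher and 3 lower, where 12.7% of all genes were higher and 10.4% lower. In Pelo-/- MEFs, 3 were higher and 21 lower (15.5% and 16.6% of all genes). The libraries labelled Upf2-/- had 5 higher and 6 lower (13.2% and 6.76% of all genes). Medians of the members were 0.07, -0.22 and -0.12, beside -0.01, -0.01 and -0.02 over all genes. With DESeq2 the median of all genes in Pelo-/- was -0.12, and the fold changes printed here are edgeR's.

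In Pelo-/- MEFs the RNA of 7 of 14 eIF3 genes and 2 of 3 eIF2 genes fell, where 16.6% of all genes fell. None of these eIF3 and eIF2 genes rose. Eif2s2 (chr2:154871410-154892935, minus strand), the beta subunit of eIF2, had 60.4 and 44.8 CPM in Pelo-/- MEFs against 197, 202 and 217 in controls (-1.96, SE 0.14, edgeR adjusted p = 0.000597), and Eif2s1 74.6 and 68.6 against 155, 159 and 163 (-1.15, edgeR adjusted p = 0.000575). Eif3e (chr15:43250058-43282719, minus strand) had 66.8 and 57.1 CPM against 229, 211 and 212 (-1.81, SE 0.10, edgeR adjusted p = 0.000399). Both Pelo-/- libraries lay below all controls for each of these genes. Eif5b had 72 and 55.3 CPM against 121, 159 and 146 (-1.16, edgeR adjusted p = 0.00275), Eif4a2 45.1 and 42.8 against 105, 95.7 and 92.3 (-1.15, edgeR adjusted p = 0.000718), and Eif5a2 3.22 and 2.95 against 6.8, 7.64 and 6.44 (-1.17, edgeR adjusted p = 0.00233). The scaffolds Eif4g3 and Eif4g1 went the other way, with 98.3 and 108 CPM against 44, 70.2 and 57.2 (0.85, edgeR adjusted p = 0.0113) and 987 and 1015 against 568, 695 and 654 (0.65, edgeR adjusted p = 0.00571). Eif4e, at 85.5 and 79 CPM against 98.2, 104 and 101 (-0.30, edgeR adjusted p = 0.0248), and Eif4enif1, which carries eIF4E into the nucleus, at 45.6 and 45.1 against 30.9, 37 and 37.7 (0.36, edgeR adjusted p = 0.0395), were lost without either Pelo-/- library or control replicate 3. The call of Eif4g3 was lost without either Pelo-/- library and that of Eif4g1 without Pelo-/- replicate 2.

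The Pelo-/- RNA rests on 2 libraries. Without replicate 1 or 2 the counts of called members were 15 and 13 instead of 24. In those fits, and for the calls lost without a Pelo-/- library above, the spread comes from the controls alone and the lone library is assumed to vary like them. The interferon list, higher in 12 of 12 genes in Pelo-/- RPFs, was called in 0 of 8 in Pelo-/- RNA (33.2–39.1 CPM against 25.98–41.6), while in Hbs1l-/- RNA 11 of 11 were higher (204–407). Ddx3y, a Y-linked gene that tells male from female embryos, was at 101, 95.8 and 0.859 CPM in the Pelo-/- RPF libraries and at 11.5 and 0.0432 CPM in the RNA libraries. RPF and RNA libraries of Pelo-/- thus differed in more than the assay. In Pelo-/- RNA the fibroblast list summed to 20224.5–20552 CPM against 11127–15177 in controls, with 2 of 9 genes higher and 0 lower. Of the cardiac markers 2 of 8 were lower and of the granule progenitor markers 2 of 5, with 0 higher in either list. The part of these differences in the values of Eif2s2, Eif3e and the others was not tested.

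In Hbs1l-/- RNA 10 members rose and 3 fell. Eef1aknmt had 40, 34.6 and 39.7 CPM against 28.5, 25 and 27.9 (0.49, edgeR adjusted p = 0.0125), Eif3d 440, 365 and 402 against 286, 281 and 324 (0.44, edgeR adjusted p = 0.019), and Eif6 287, 263 and 339 against 231, 209 and 226 (0.41, edgeR adjusted p = 0.0276). Eif4e3 had 9.93, 8.4 and 8.25 CPM against 6.32, 6.52 and 6.69 (0.44, edgeR adjusted p = 0.0377), and Eif5a 2003, 1798 and 2030 against 1558, 1394 and 1575 (0.37, edgeR adjusted p = 0.031). These genes were high in each Hbs1l-/- library. Lower were Eif4a2, with 41.1, 65.7 and 70.6 CPM against 107, 94.1 and 92.6 (-0.72, SE 0.18, edgeR adjusted p = 0.0202), Eif2s2, with 105, 154 and 156 against 201, 199 and 217 (-0.57, edgeR adjusted p = 0.0229), and Eif1a, with 46.3, 65.6 and 67.2 against 81.8, 89.7 and 81.8 (-0.50, edgeR adjusted p = 0.0312). Hbs1l-/- replicate 1 was the lowest for all 3. The number of called members, 13, fell to 5, 7 and 8 without Hbs1l-/- replicate 1, 2 or 3, to 4 and 5 without control replicate 1 or 3, and to 0 without control replicate 2, so each of these calls was lost at least once. In the same libraries 4 of 8 cardiac markers and 3 of 6 endothelial markers were lower (endothelial sum 16.9–19.2 CPM against 32.1–41.7) and 4 of 9 fibroblast markers higher and 1 lower, beside the interferon list given above, and their part was not tested.

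In the RNA of the libraries labelled Upf2-/-, Eif4a2 had 205, 163 and 110 CPM against 109, 95.6 and 93.7 (0.68, SE 0.19, edgeR adjusted p = 0.0291) and Eif5 322, 284 and 221 against 187, 196 and 172 (0.57, edgeR adjusted p = 0.0162). Eif1ad had 43.1, 45.8 and 48.7 CPM against 28.2, 28.3 and 31.8 (0.64, edgeR adjusted p = 0.00344), and the eIF2B subunits Eif2b4 52, 55 and 65 against 40.4, 34.3 and 39.8 (0.59, edgeR adjusted p = 0.00862) and Eif2b1 71.1 ± 4.13 against 52.7 ± 4.46 (0.43, edgeR adjusted p = 0.0197). For Eif4a2 and Eif5, replicate 3 was nearest to the controls. Eif5a2 had 3.97, 3.62 and 2.86 CPM against 7.05, 7.63 and 6.54 (-1.02, edgeR adjusted p = 0.00246) and Eef1a1 7160, 7107 and 6327 against 9004, 9044 and 10190 (-0.46, edgeR adjusted p = 0.019). Eif2s3x had 153, 142 and 183 CPM against 306, 298 and 180 (-0.71, edgeR adjusted p = 0.023), with overlap, Eif3a 241, 200 and 145 against 244, 332 and 308 (-0.59, edgeR adjusted p = 0.0403), and Eif3e 170, 164 and 116 against 237, 210 and 216 (-0.56, edgeR adjusted p = 0.0214). The Eef1a1 call was lost without replicate 2 or 3 labelled Upf2-/-, that of Eif5 without replicate 2 or control replicate 3, that of Eif2s3x without replicate 1 or 2 or control replicate 1 or 2, that of Eif3a without replicate 2 or 3 or control replicate 2 or 3, and that of Eif3e without any of the controls. The Eif4a2 call was lost without replicate 1 or 2 labelled Upf2-/- or control replicate 2 or 3, and when protein-coding transcripts alone were counted. The number of called members, 11, fell to 4 without replicate 2 labelled Upf2-/-, to 6 without control replicate 2 and to 5 without control replicate 3. Ddx3y was at 26.6, 23.7 and 0.0797 CPM in these RNA libraries and at 113–123 in all 3 RPF libraries, so that RNA replicate 3 stood apart from the RPF libraries in this gene. In the RNA controls Ddx3y was at 0, 0.122 and 29.6 CPM, in the order in which the X-linked Eif2s3x had 306, 298 and 180. Sex and genotype were thus not balanced in this comparison. The interferon list was higher in 10 of 12 genes in this RNA (49.6–104 CPM against 25.98–41.6). The part of these in the RNA values was not tested.

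Calls in RNA are set beside calls in RPFs here. The joint counts were taken for the members alone, with no share over all genes, and are a description only. RPF and RNA libraries of Pelo-/- also differed in the interferon list and in Ddx3y, as given above. Of the 21 members with lower RNA in Pelo-/-, 14 had RPFs that were not called, 4 had higher RPFs (Eef1b2, Eif1ax, Eif3i and Eif3j1) and 3 had lower RPFs (Eif1a, Eif4a2 and Eif5a2). In Hbs1l-/-, 4 members were higher in both (Eef1aknmt, Eef1d, Eif3b and Eif3d) and Eif4a2 was lower in both. In the libraries labelled Upf2-/-, Eif1ad, Eif2b1, Eif4a2 and Eif5 were higher in both, and Eef1a1 and Eif5a2 lower in both. Eif3a had lower RNA and higher RPFs there, and Eif4g3 higher RNA and lower RPFs in Pelo-/-.

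Translation efficiency (TE) is the RPF level relative to RNA, and its change was tested in 1 model over both kinds of library, as the term by which the genotype effect differs between RPFs and RNA. In Pelo-/- MEFs it was higher for 28 of 55 members and lower for 2, where 21.9% of all genes were higher and 18.6% lower. The median was 0.46 over the members and 0.05 over all genes. TE was higher for 7 and lower for 0 in the libraries labelled Upf2-/- (7.6% and 10.4% of all genes), with medians of 0.10 and -0.03. In Hbs1l-/- edgeR called 0 of 55, where 0.0152% of all genes were called, 10 had an unadjusted p below 0.05 (16.1% of all genes) and DESeq2 called 4.

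In Pelo-/- several members rose in TE with lower RNA and RPFs that were not called. TE of Eif2s2 rose by 2.12 (SE 0.17, edgeR adjusted p = 2.97e-06), with RPFs of 84.2 ± 5.84 CPM in Pelo-/- and 75.9 ± 8.997 in controls. TE of Eif3e rose by 1.84, with RPFs of 223 ± 9.17 and 221 ± 19.1 CPM. Eif2s1 (1.29) and the methyltransferase gene Eef1akmt2 (1.25) followed. TE of Eif3j1 rose by 2.52, at RPFs of 3.14 ± 0.896 against 0.939 ± 0.304 CPM, and that of Eef1g by 1.15, both at uncertain counts. RPF and RNA libraries of Pelo-/- differed in the interferon list and in Ddx3y as given above, and the part of this in the TE values was not tested. By role, 10 of 14 eIF3 genes, 4 of 6 eEF1 genes and all 3 of Eif5, Eif5b and Eif6 rose, where 21.9% of all genes rose. Of 11 eIF4 genes 2 rose and 2 fell, and of the eIF2B subunits 1 of 5 rose. Eif4g3 (-1.06, edgeR adjusted p = 0.000683) and Eif4g1 (-0.65, edgeR adjusted p = 0.00112) fell in TE, and the RPFs of Eif4g1 were 1020 ± 37.4 and 1020 ± 39.6 CPM. Eef1a1 (0.44), Eif4a1 (0.86) and Eif4a2 (0.51) rose, the last not without Pelo-/- RNA replicate 2, and Eef2 rose by 0.38 (edgeR adjusted p = 0.032), a call lost without any of 7 libraries (Pelo-/- RPF replicate 1 or 2, RPF control replicate 1 or 3, either Pelo-/- RNA library, RNA control replicate 3).

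TE rose in the libraries labelled Upf2-/- for Eif3a (0.83, edgeR adjusted p = 0.0125), Eif5b (0.76, edgeR adjusted p = 0.0214), Eif3j2 (0.75, edgeR adjusted p = 0.0281), Eif3c (0.67, edgeR adjusted p = 0.00478), Eif4e (0.67, edgeR adjusted p = 0.0377), Eif1ax (0.57) and Eef1d (0.40). The 7 calls fell to 3 without RPF replicate 2 labelled Upf2-/-, control replicate 1 of the pool or RNA control replicate 3, to 2 without control replicate 2 of the pool and to 4 without RNA control replicate 2. Between RPF and RNA libraries labelled Upf2-/- other genes differed too: 8 of 12 interferon genes rose in TE (median 2.44). Of the fibroblast markers 5 of 9 rose and 0 fell (median 0.58), and of the endothelial markers 1 of 5 rose and 2 fell. RNA replicate 3 stood apart in Ddx3y as given above. The part of these differences in the TE values was not tested. In Hbs1l-/- the lowest p values were those of Eif3a (0.71, edgeR adjusted p = 0.102), Eif4e (0.57, edgeR adjusted p = 0.153) and Eef1a1 (0.41, edgeR adjusted p = 0.162). TE of Eif5a and Eif5a2 was called in none of the 3 genotypes.

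**Figure D4:**
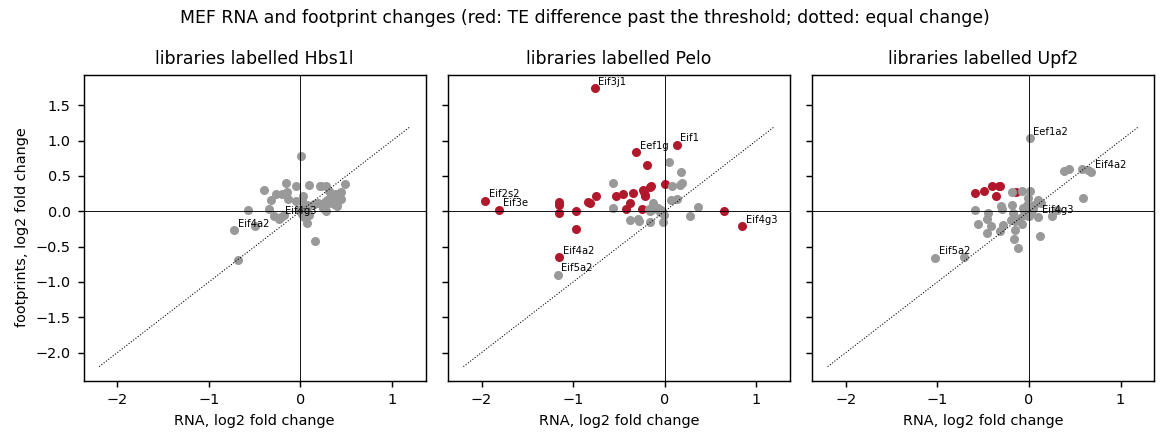
Log2 fold change of RNA (x axis) and of RPFs (y axis) for the members in each of 3 MEF genotypes, in red where TE was called, with a dotted line for equal change. In Pelo-/- MEFs most members lie above the line, with Eif2s2 and Eif3e far to the left at an RPF change near 0.

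RNA was also tested by transcript. In Hbs1l-/- 1 of 225 member transcripts was called (1.31% of all transcripts tested), in Pelo-/- 2 of 215 were higher and 13 lower (2.37% of all transcripts called), and in the libraries labelled Upf2-/- 10 of 249 were higher and 4 lower (5.35%). The call in Hbs1l-/-, Eif5a-201 (25.02, 23.4 and 23.7 TPM against 11.2, 16.1 and 13.02, a log2 difference of 0.82), was lost when any library was left out, and so were all 15 in Pelo-/-, with Eif2s2-205 (-3.76), Eif3e-201 (-1.83), Eif2s2-201 (-1.75) and the NMD transcript Eif4a2-204 (-1.27) among the decreases and Eif4g3-205 (1.87) and a transcript of Eif4g1 (1.23) as the increases.

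Of 18 member transcripts annotated as NMD targets, 3 were called higher and 0 lower in the libraries labelled Upf2-/-, beside 14.7% called higher of 2945 such transcripts of all genes, and their median log2 fold change was 1.196, beside -0.18 for 147 protein-coding and 0.19 for 57 retained-intron transcripts. Over all genes these medians were 0.88, -0.09 and 0.26. Eif3k-205 had 28.8, 25.4 and 28.9 TPM against 4.00, 5.32 and 5.00 in controls (2.51, edgeR adjusted p = 0.0022). Eif5-207 had 17.6, 16.9 and 12.1 TPM against 1.24, 2.63 and 3.73 (2.56, edgeR adjusted p = 0.0148). Eif4a2-204 had 62.3, 56.1 and 31.7 TPM against 22.6, 19.9 and 23.2 (1.11, edgeR adjusted p = 0.0422). Each library labelled Upf2-/- lay above each control for these 3 transcripts. The call of Eif3k-205 held with every library left out in turn. That of Eif5-207 was lost without any library labelled Upf2-/- or control replicate 2, and that of Eif4a2-204 without replicate 1 or 2 labelled Upf2-/- or any control. With the replicate number as a block none of these 3 transcripts was called.

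Other transcripts that rose in the libraries labelled Upf2-/- carry other annotations. Of 57 retained-intron transcripts of members 3 were higher, near the 4.86% of 5696 such transcripts of all genes. The retained-intron transcripts Eif2b2-207 (4.46, 4.78 and 6.86 TPM against 0.682, 0.788 and 0.839) and Eef1d-211 (10.5, 9.62 and 9.85 TPM against 2.04, 1.37 and 1.70) rose by 2.76 and 2.49, and Eif5-208 had 0.236, 0.316 and 0.222 TPM where controls were at 0. The coding transcript Eif2b4-203 rose by 2.49 (edgeR adjusted p = 0.00797). Eif4a2-203 was at 6.76e-05, 0 and 0 TPM in the libraries labelled Upf2-/- and at 5.57, 8.31 and 10.3 TPM in controls. The calls of Eif2b2-207, Eef1d-211, Eif2b4-203 and Eif4a2-203 held with every library left out in turn. With the replicate number as a block none of them was called. Within Eif4a2, the NMD transcript Eif4a2-204 made up 40.5 ± 2.23% of the gene's TPM in the libraries labelled Upf2-/- and 26.9 ± 2.73% in controls, and a second NMD transcript, Eif4a2-210, had 40.5, 25.7 and 17.8 TPM against 20.4, 18.4 and 17.6, with overlap and no call.

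**Figure D5:**
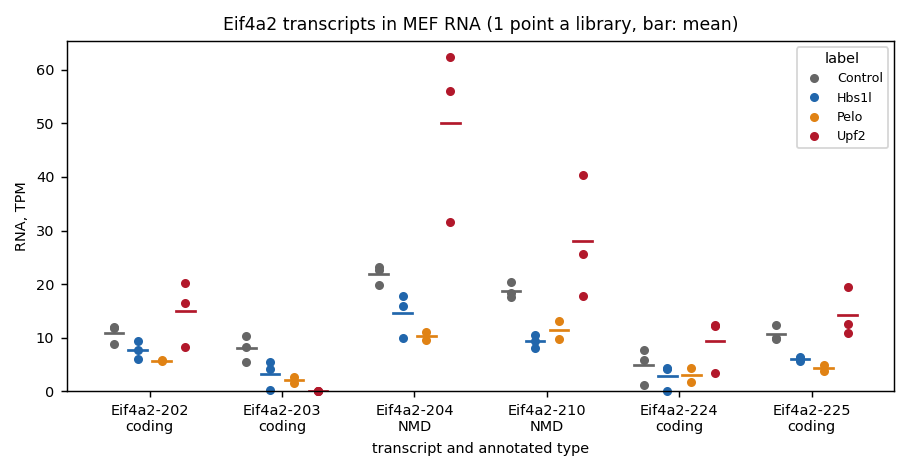
TPM of 6 transcripts of Eif4a2 in each RNA library of control, Hbs1l-/-, Pelo-/- and Upf2-/- labelled MEFs, with 1 point per library. The NMD transcript Eif4a2-204 is at 31.7 to 62.3 TPM in the libraries labelled Upf2-/- and at 19.9 to 23.2 in controls, and Eif4a2-203 is at or near 0 in the former.

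Genes that act on these factors were read from 4 lists. The shares of all genes called in RPFs of the Hbs1l-/-, Pelo-/- and Upf2-/- labelled libraries, against which these counts are to be read, were 17.4%, 22.9% and 22.3% higher and 16.7%, 21.2% and 21.1% lower. Of 21 tested regulators of initiation, 6 were higher and 5 lower in Hbs1l-/- RPFs, 6 and 5 in Pelo-/-, and 6 and 4 in the libraries labelled Upf2-/-. Eif2ak2, the eIF2 kinase PKR and itself induced by interferon, rose by 0.97, 2.03 and 1.56 in RPFs and fell by 1.28 in Pelo-/- RNA. Pdcd4, which blocks the eIF4A helicase, fell by 0.49, 0.86 and 0.28 in RPFs and by 1.15, 1.85 and 0.97 in RNA. Ppp1r15a, which lets eIF2 be dephosphorylated, rose in RNA of the libraries labelled Upf2-/- (1.38) and of Pelo-/- (0.72).

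Of 12 genes that modify elongation factors, 4 were higher in Hbs1l-/- RPFs, 5 in Pelo-/- and 5 in the libraries labelled Upf2-/-, and 0, 1 and 0 lower, beside the shares of all genes just given. Dph1 and Dph2, which start the diphthamide modification of eEF2, rose by 0.53 and 0.43 in Hbs1l-/-, by 0.74 and 0.74 in Pelo-/- and by 1.00 and 1.07 in the libraries labelled Upf2-/-. In the RNA of the last, Dph2 (1.18), Dhps (1.17), which starts the hypusine modification of eIF5A, and Dph1 (1.07) rose as well. Of 9 genes of termination and recycling, 3, 1 and 0 were higher and 0, 0 and 2 lower in RPFs, and 6 fell in Pelo-/- RNA, among them Abce1 (-1.73), the recycling ATPase, Mcts1 (-1.28) and the release factor gene Etf1 (-0.55), where 16.6% of all genes fell. Of 10 mitochondrial translation factors, 2, 3 and 2 were higher and none lower in RPFs, near the 17.4%, 22.9% and 22.3% of all genes that were higher. Of the 12 members listed as TOP mRNAs (Eef1a1, Eef1a2, Eef1b2, Eef1d, Eef1g, Eef2, Eif2s3x, Eif3a, Eif3e, Eif3f, Eif3h and Eif4b), 7, 7 and 5 were higher in RPFs and 0, 0 and 1 lower, beside the same shares. In RNA 1, 0 and 0 of them were higher and 0, 4 and 4 lower, where 10.4%, 16.6% and 6.76% of all genes were lower. In TE 9 rose in Pelo-/- (21.9% of all genes), 2 in the libraries labelled Upf2-/- (7.6%) and 0 in Hbs1l-/-. In embryos 1 mitochondrial factor and Eif2s3x of the TOP list fell, and no other gene of these lists was called by edgeR in embryos or cerebella.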

How the data were processed

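The authors deposited raw counts of RPFs per gene and, for RNA, estimated counts and TPM per transcript. Per their methods, adapters were clipped, reads on rRNA, snoRNA and tRNA removed with Bowtie2 2.2.3, the rest mapped with HISAT2 2.1.0 to mm10 (Gencode M24) and counted on coding sequence with featureCounts. The handling of reads that map to several places is not given in the sources used here. The TPM and estimated counts deposited by the authors came from kallisto 0.42.4. Gene spans and the coding lengths behind RPKM (the union of the coding exons of all transcripts of a gene) are from Gencode M21 on GRCm38, and start sites from RefSeq (GRCm38.p6).

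The members, lists and tests were chosen with earlier results of these data known. In each comparison of a genotype and its controls the text names up to 4 increases and 4 decreases with the largest change. These are members past the threshold with a mean of at least 5 CPM, or the 3 lowest p values where none passed. Between control tissues up to 5 in each direction are named, of transcripts up to 6 annotated as NMD or retained intron, of listed genes up to 3 in each direction, and always Eef1a1, Eef1a2, Eef2, Eif2s1, Eif4e, Eif4a1, Eif4a2, Eif5a and Eif5a2. Other members were added after their values were seen.

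Every fit took the libraries of 1 comparison and was made with edgeR 4.0.16 under R 4.3.3 (default filter on low counts, TMM factors, quasi-likelihood test, Benjamini-Hochberg adjustment, threshold 0.05), for all genes at once, leaving out histone genes from RPF and TE tests as the authors did. Estimated counts were rounded after summing per gene. CPM values are scaled by the TMM factors of the comparison, so that a control library can differ slightly between comparisons. The MEFs came from individual embryos. Footprints carry no molecular identifiers, so precision from counts covers counting error only. Alternatives were DESeq2 1.42.0, RLE factors, no filter, a replicate block, leaving out each library, and for RNA counts scaled from TPM, protein-coding transcripts alone and 1 fit of all libraries.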

Additional observations from a re-analysis of the deposited data

Results flagged for a closer look

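The results below are those in which the effect of a genotype differed between groups by edgeR's test of the difference itself (adjusted p below 0.05 over all genes). Each value is a difference between log2 fold changes of RPFs.

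Between the libraries labelled Upf2-/- and Hbs1l-/- MEFs, the differences were 0.83 for Eif4a2, 0.58 for Eif2b1, -0.66 for Eef1a1, -0.43 for Eif3e and -0.34 for Eef1b2. Eef1a1 and Eif4a2 were called in opposite directions in these 2 genotypes. The call of Eef1b2 was lost without 8 of the 12 libraries in turn.

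Between the libraries labelled Upf2-/- and Pelo-/- MEFs, the differences were 1.204 for Eif4a2, 0.59 for Eif2b1, 0.46 for Eif5, 0.31 for Eif5b, -1.30 for Eif1, -0.94 for Eif4a1, -0.76 for Eef1g, -0.53 for Eef1a1, -0.38 for Eef1b2, -0.34 for Eif6 and -0.28 for Eif3i. The counts of Eif1, Eif4a1, Eef1g and Eef1a1 are among those with few RPFs for their RNA, and the part of shared reads was not tested. The control libraries of both pools come from the same cultures, and the lists here depend on counting them as separate. With the controls summed per culture, chosen after seeing the data, 21 members were called in this comparison. By that count 11 were called between the libraries labelled Upf2-/- and Hbs1l-/-, and 5 between Pelo-/- and Hbs1l-/-.

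The Hbs1l effect differed between embryos and MEFs by -1.03 for Eef1g, and between embryos and cerebella by 0.90 for Eif4a2. The counts of Eef1g are uncertain, and its call was lost without Hbs1l-/- MEF replicate 1, when 0 members were called. The call of Eif4a2 was lost without any of 10 of the 12 libraries and with the replicate number as a block, when 0 members were called.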

How the results depend on the processing

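No value changed sign among those called. With each library left out in turn, 1537 results kept their side of the threshold, 296 lost their call and 13 gained one. With the other alternatives these numbers were 1111, 71 and 20. Both tallies cover only the results followed singly and not every member, and the counts of called members given next hold more gains. Leaving out a library gave 0 to 9 called members in embryos, 0 to 4 in cerebella, 0 to 8 in Hbs1l-/- RNA, 13 to 27 in Pelo-/- RNA, 4 to 16 in RNA labelled Upf2-/-, 0 to 1 in Hbs1l-/- TE, 2 to 10 in TE of the libraries labelled Upf2-/-, 0 to 1 for Pelo-/- against Hbs1l-/-, 3 to 5 for Upf2-/- labelled against Hbs1l-/-, 6 to 15 for Upf2-/- labelled against Pelo-/-, 0 to 13 for embryos against MEFs and 0 to 3 for embryos against cerebella. For transcripts it gave 0 in Hbs1l-/-, 0 in Pelo-/- and 5 to 11 in the libraries labelled Upf2-/-.

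DESeq2 called 2 members in cerebella, 20 in Hbs1l-/- RNA, 19 in RNA labelled Upf2-/-, 4 in Hbs1l-/- TE, 5 for embryos against MEFs, 2 for embryos against cerebella, and 18, 38 and 37 transcripts in the 3 genotypes. Counts scaled from TPM gave 5 in Hbs1l-/- RNA and 15 in Pelo-/- RNA. RLE factors gave 3 and no filter gave 2 for embryos against MEFs, and no filter left 0 transcripts in Hbs1l-/-. Controls summed over both pools, chosen after seeing the data, gave 5, 11 and 21 for the 3 differences between MEF genotypes. Except for the summed controls, whose shares of all genes stand above, these counts lack the share of all genes called under the same setting. Counts with a library left out or with a replicate block, here and above, lack it too. A change in such a count is therefore not a result about the members. The cause of these changes was not tested.

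Whether equal replicate numbers pair the samples was not settled, and the main fits treat them as unpaired. Not every same-numbered pair of deviations correlated above 0.1. Deviations were taken from the means of groups of 2 or 3 libraries, which fixes part of these correlations, so they cannot decide it. With the replicate number as a block, the calls were 3 in embryos, 0 in cerebella, 15, 22 and 16 in MEF RPFs, 12, 17 and 15 in RNA, 0, 28 and 5 in TE, 1, 6 and 11 for the differences between MEF genotypes, 2 for embryos against MEFs, 0 for embryos against cerebella, and 0, 0 and 0 transcripts. With 2 or 3 libraries a group and low counts for genes such as Eif5a2 and Eif3j1, depth limits what small differences can show.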

Other observations

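The shares of 3 pairs of related members in the control RPFs are given as values with no test, each a share of the summed RPKM of both genes. Eif1b took 97.2% of the RPKM of Eif1 and Eif1b in control cerebella, 90.8% in control embryos and 86.7% in control MEFs of the Hbs1l pool, with uncertain counts of Eif1. Eif4e3 took 35.6%, 7.98% and 16.9% of the RPKM of Eif4e and Eif4e3 in the same order. Eif1ax took 92.5%, 78.9% and 60.5% of that of Eif1a and Eif1ax, at the coding lengths given above. In control MEF RNA Eif1 stood above Eif1b, the reverse of the RPFs, at 587 ± 78.4 TPM against 32.2 ± 4.04.

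In Hbs1l-/- RNA, edgeR's test was also passed by Eif1b (0.40, adjusted p = 0.0214), Eif1ad (0.39, adjusted p = 0.0301), the eIF2B subunit Eif2b4 (0.36, adjusted p = 0.0358), Eif3b (0.35, adjusted p = 0.0343) and Eef1d (0.33, adjusted p = 0.0496).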
